A study of Arabidopsis thaliana with 6 samples.

Results

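The transcripts described here are those of cytochrome P450 genes of Arabidopsis, taken as every gene whose single symbol in the array annotation reads CYP, a number, capital letters and a number. This gave 22 genes, each with 1 probe set, of 13350 genes with a single-gene probe set in the annotation used. It names no gene for 8730 of the 22746 probe sets tested, and whether these read other P450 genes was not settled. Below, a gene counts as measured only if this annotation gives it a single-gene probe set. The gene table of the TAIR10.1 assembly holds 225 symbols of this form in 40 families, so the 22 genes are a small and uneven sample: 18 belong to family CYP71, all of them to subfamily CYP71B (35 in the gene table), and CYP51, CYP78, CYP79 and CYP84 have 1 gene each. The gene table lists 20 of them as protein-coding, and CYP51G2 and CYP71B27 as transcribed pseudogenes.

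Transcript levels were measured on 6 Affymetrix arrays, 3 from albino msh1 mutants and 3 from wild type, with 1 biological replicate on each array. MSH1 encodes a MutS-type protein that keeps the genomes of organelles stable; which msh1 allele was used is not stated in the labels. Both groups were sampled as aerial tissue at 4 weeks, after growth on MS medium supplemented with 1.5% sucrose under 12 h light and 12 h dark at 24 °C. All msh1 arrays came from albino mutants, so the mutation and the albino state cannot be told apart.

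Cytochrome P450s are haem-thiolate enzymes that mostly insert an oxygen atom into a small molecule. In plants they are anchored in the endoplasmic reticulum for the most part and draw electrons from a P450 reductase. The family is large in plants, where it makes and breaks down hormones, sterols, pigments, lignin precursors, waxes and defence compounds such as camalexin and glucosinolates. CYP71B is one of the largest Arabidopsis subfamilies, and many of its genes lie side by side as tandem copies.

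Of the 22 P450 genes, 2 were higher in msh1 albino tissue than in wild type and 2 were lower at a limma adjusted p of 0.05, all 4 of them CYP71B genes. CYP71B23 and CYP71B6 rose, and CYP71B28 and CYP71B35 fell. The share called was 18.2% of the P450 genes, against 11.2% of all 22746 probe sets tested. In each direction it was 9.09% of the P450 genes, against 3.75% of probe sets called higher and 7.44% called lower. With 22 genes these shares rest on very few calls, and 0 P450 genes passed an adjusted p of 0.01. With the arrays aligned on their 75th percentile the split was 2 higher and 0 lower, and the order of the shares turned: 9.09% of the P450 genes passed, against 10.5% of all probe sets. At an unadjusted p of 0.05, 6 genes passed (27.3%, against 25.7% of all probe sets). The aerial part holds many cell types, and fewer cells of a type and less RNA per cell cannot be told apart in these values.

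**Figure D1:**
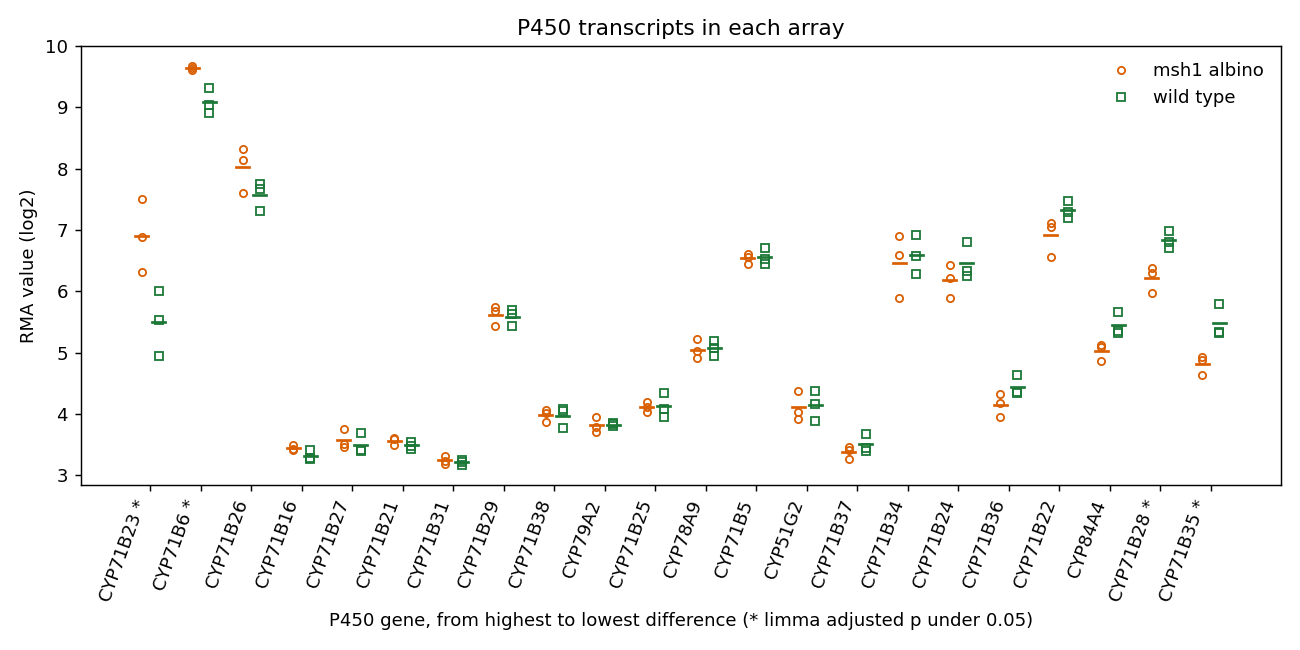
RMA values (log2) of the 22 P450 genes in each of the 6 arrays, msh1 albino (circles) left of wild type (squares), with horizontal lines at the group means. Levels of different probe sets are not comparable with each other; the groups do not overlap in 8 genes, and the 4 called ones, CYP71B23, CYP71B6, CYP71B28 and CYP71B35, are marked with an asterisk and have the widest gaps.

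CYP71B23 (AT3G26210) showed the largest difference of the P450 genes. Its log2 values were 6.89, 7.50 and 6.32 in msh1 albino replicates 1 to 3, against 6.004, 4.94 and 5.53 in wild-type replicates 1 to 3. Every albino array lay above every wild-type array, although the values spread over 1.18 within the albino group and 1.06 within wild type, the widest spread of any P450 gene. The difference was 1.41 ± 0.34 (SE, 3 arrays per group; 95% interval 0.62 to 2.20), or 2.66-fold higher, with a limma adjusted p of 0.0373. The call was lost when msh1 albino replicate 1 (adjusted p = 0.0899), msh1 albino replicate 2 (0.0655), wild-type replicate 2 (0.124) or wild-type replicate 3 (0.0993) was left out, while the difference stayed between 1.11 and 1.70.

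CYP71B6 (AT2G24180) acts on indole-3-acetonitrile, an intermediate near camalexin and the breakdown products of indole glucosinolates. Its values were 9.61, 9.68 and 9.64 in the albino arrays, against 9.32, 8.91 and 9.03 in wild type. The albino arrays were nearly identical (SD 0.03) and all lay above the wild-type arrays (SD 0.21). The difference was 0.56 ± 0.12 (SE), or 1.47-fold higher, with a limma adjusted p of 0.0259. It passed without wild-type replicate 1 (adjusted p = 0.0169) and missed the threshold without any other single array, as wild-type replicate 2 (0.0928), wild-type replicate 3 (0.0864) and msh1 albino replicates 1 (0.0633), 2 (0.0568) and 3 (0.0659) show.

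CYP71B28 (AT1G13090) fell. It read 6.38, 5.98 and 6.29 in msh1 albino tissue, against 6.99, 6.70 and 6.80 in wild type, with no overlap and a gap of 0.33 between the nearest arrays. The difference was -0.62 ± 0.13 (SE), or 1.53-fold lower, with a limma adjusted p of 0.0257. The call held without msh1 albino replicate 1 (0.0375) or 2 (0.0449). It was lost without msh1 albino replicate 3 (0.0524) or wild-type replicate 1 (0.0716), 2 (0.0653) or 3 (0.0740), and also with the arrays aligned on their 75th percentile (0.0588) or by cyclic loess (0.0529).

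CYP71B35 (AT3G26310) fell by 0.67 ± 0.15 on the log2 scale (SE), or 1.59-fold. Its values were 4.89, 4.63 and 4.92 in msh1 albino tissue, against 5.79, 5.33 and 5.32 in wild type. The groups were 0.40 apart at their nearest arrays, the widest gap of any P450 gene. The limma adjusted p was 0.0315, but leaving out any one of the 6 arrays ended the call (adjusted p = 0.0559 to 0.0713), as did alignment on the 75th percentile (0.0589). With the arrays aligned on spiked hybridization controls, where limma gave all P450 genes the same SE of 0.27, CYP71B6 (adjusted p = 0.417), CYP71B28 (0.220) and CYP71B35 (0.150) did not pass, while CYP71B23 did.

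Leaf markers moved in the same comparison. Of 6 listed genes of photosynthetic tissue 3 were measured, LHCB4.1, LHCB4.2 and RCA. All 3 were called lower in msh1 albino tissue, against 7.44% of all probe sets, but the list was chosen with earlier results of these data known. The summed log2 values of these 3 genes ran from 36.3 to 37.1 in the albino arrays, against 38.9 to 39.0 in wild type. Of the stomatal lineage markers FMA, SPCH and MUTE 0 passed (differences of 0.00 to 0.37), and SAG29, a sugar exporter used as a senescence marker, had a difference of -1.06 and an adjusted p of 0.104. The listed markers of flowers, pollen, root and epidermis were not analysed here. Whether the makeup of the tissue had a part in the P450 differences was not tested.

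Most of the CYP71B genes stand in 1 stretch of chromosome 3 that runs, in the gene order of TAIR10.1, from CYP71B16 to CYP71B37. The stretch holds 25 annotated genes, 18 of them P450 genes by symbol, and 11 of these were measured. Along it 1 gene rose (CYP71B23), 1 fell (CYP71B35) and the remaining 9 did not pass, with a median difference of -0.13 over the 11. Over the whole array 11.2% of probe sets passed, and a count of 2 of 11 is too small to be told from that share. The 2 called genes differed in direction. Of the 11 differences 4 were positive and 7 negative, from -0.67 to 1.41, but the signs of small ones are not firm. CYP71B25 had -0.02 as deposited and 0.07 with the arrays aligned on their 75th percentile. Among measured genes within 10 places of the stretch on either side that are no P450 genes, 0 of 7 passed and 2 had no overlap between the groups, with differences of -0.46 to 0.15. These counts are too small to set the stretch apart from its surroundings.

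**Figure D2:**
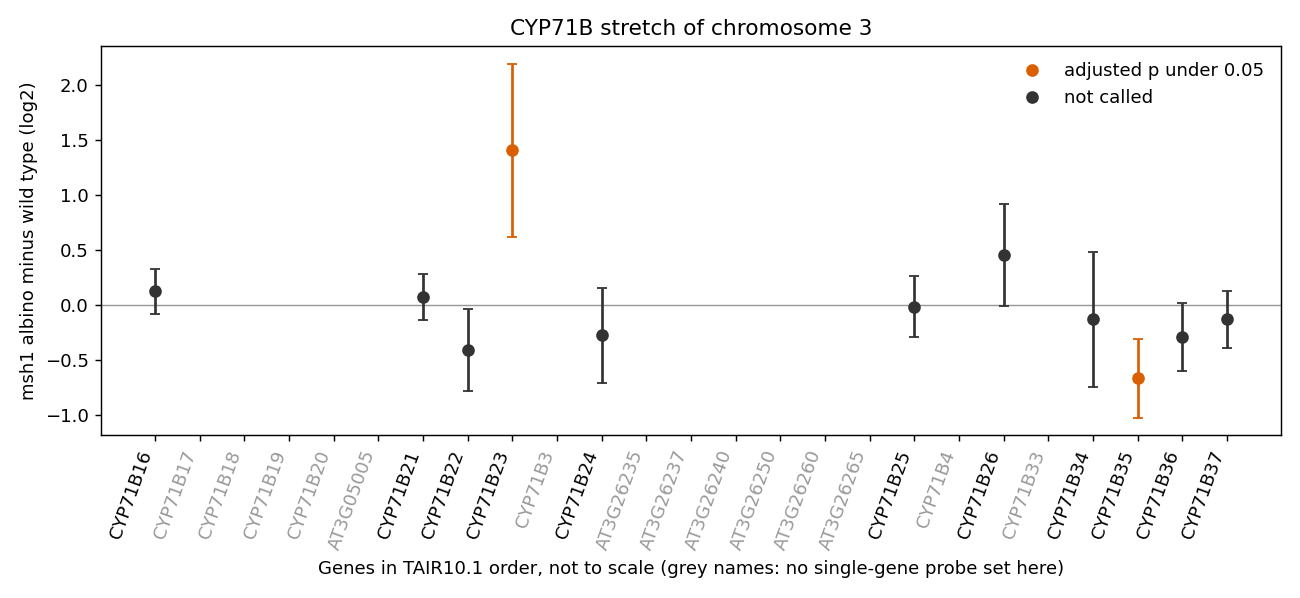
Differences (msh1 albino minus wild type, log2) with 95% intervals for the 11 measured P450 genes of the chromosome 3 stretch, placed in gene order and not to scale; grey names had no single-gene probe set here. CYP71B23 at 1.41 stands above neighbours that lie between -0.67 and 0.45.

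At the left end of the stretch CYP71B16 had 3.42, 3.42 and 3.49 in msh1 albino tissue, against 3.41, 3.27 and 3.28 in wild type (difference 0.12, adjusted p = 0.464). CYP71B21 had a difference of 0.07 (95% interval -0.13 to 0.28). CYP71B22, directly before CYP71B23, read 7.12, 6.57 and 7.05 in the albino arrays, against 7.19, 7.48 and 7.29 in wild type. All albino arrays of CYP71B22 lay below wild type, by only 0.08 at the nearest, and its difference of -0.41 ± 0.16 (SE) had an adjusted p of 0.158. CYP71B24, beyond CYP71B23, had a difference of -0.27 ± 0.19 (adjusted p = 0.429), and its highest value of all was 6.80 in wild-type replicate 1.

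In the right part, CYP71B25 stood near the low end of the array's values in both groups, with means of 4.11 ± 0.08 in msh1 albino tissue and 4.12 ± 0.19 in wild type (SD, n = 3 arrays each). CYP71B26 read 8.32, 8.14 and 7.61 in the albino arrays, against 7.75, 7.30 and 7.66 in wild type. Its groups overlapped through msh1 albino replicate 3, and the difference of 0.45 ± 0.20 (SE) had an adjusted p of 0.207. CYP71B34 read 6.90, 6.60 and 5.89 in msh1 albino tissue, against 6.92, 6.29 and 6.57 in wild type, with wide overlap (difference -0.13, adjusted p = 0.828). CYP71B34 minus CYP71B26 had an SD of 0.15 in the albino arrays and 0.14 in wild type. Alone, CYP71B34 had an SD of 0.52 and 0.32, and CYP71B26 had 0.37 and 0.24. The pair is 1 of 13 compared below, with 3 arrays per group, and whether the genes vary together was not tested.

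CYP71B36 and CYP71B37 close the stretch. CYP71B36 read 3.95, 4.32 and 4.18 in the albino arrays, against 4.34, 4.35 and 4.64 in wild type, a difference of -0.29 ± 0.13 (SE) with an adjusted p of 0.223. The groups of CYP71B36 did not overlap, but only 0.02 separated their nearest arrays. CYP71B37 had means of 3.37 in msh1 albino tissue and 3.51 in wild type (adjusted p = 0.549).

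Because neighbouring copies are read in the same array, the value of 1 P450 gene minus that of the one before it among the 22 was compared between the groups. This was done for all 13 such pairs in the 3 places where CYP71B genes lie together. Other genes can lie between them, as CYP71B30P, which was measured, lies between CYP71B5 and CYP71B31. A shift in this difference means that the RMA values of the pair moved unequally and does not say which gene moved. Differences at low values are compressed. A shift in a pair that holds a low gene, such as CYP71B21 or CYP71B27, therefore need not mean unequal transcript changes. In 6 of 13 pairs (46.2%) the groups did not overlap, against 31.1% of 13274 pairs of successive measured genes of any name over all chromosomes. The pairs are not independent, since most genes stand in a pair on each side: 4 of the 6 hold CYP71B23 or CYP71B28, whose own calls are given above, so the count in large part restates those. For each of the 6 the two-sided exact permutation p was 0.1, the smallest that 3 against 3 arrays can give, and 0.217 adjusted over the 13 pairs. CYP71B23 minus CYP71B22 was -0.23, 0.93 and -0.74 in msh1 albino tissue, against -1.19, -2.53 and -1.76 in wild type, a shift of 1.82. CYP71B24 minus CYP71B23 shifted by -1.68, with means of -0.72 ± 0.33 in albino tissue and 0.96 ± 0.30 in wild type (SD, n = 3 arrays each). CYP71B34 minus CYP71B26 averaged -1.56 ± 0.15 in albino tissue and -0.98 ± 0.14 in wild type (SD, n = 3 arrays each).

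On chromosome 1, CYP71B28 lies directly before CYP71B29, with CYP71B27 on the other side beyond CYP71B2, a gene not analysed here. Only CYP71B28 was called among the 3 measured genes. CYP71B29 read 5.73, 5.67 and 5.44 in msh1 albino tissue, against 5.63, 5.69 and 5.43 in wild type, with full overlap and a difference of 0.03 (95% interval -0.25 to 0.30). CYP71B29 minus CYP71B28 was -0.60 ± 0.28 in the albino arrays and -1.25 ± 0.20 in wild type (SD, n = 3 arrays each), a shift of 0.64 with no overlap. CYP71B27, the pseudogene, had a difference of 0.08 at low values of 3.39 to 3.76.

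The other CYP71B genes did not pass. CYP71B5 (AT3G53280) had means of 6.54 ± 0.08 in msh1 albino tissue and 6.56 ± 0.13 in wild type (SD, n = 3 arrays each), with a 95% interval of -0.26 to 0.22 for the difference. Its neighbour CYP71B31 (AT3G53300), which oxidises linalool in flowers, read 3.18 to 3.31 in the albino arrays and 3.16 to 3.25 in wild type (difference 0.03, adjusted p = 0.870). CYP71B38 (AT3G44250) had a difference of 0.02 (95% interval -0.25 to 0.29).

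Outside CYP71 0 of 4 genes passed, 1 in each family. CYP84A4 (AT5G04330), a relative of ferulate 5-hydroxylase that takes part in making arabidopyrones, came nearest. Its values were 4.86, 5.09 and 5.12 in msh1 albino tissue, against 5.32, 5.66 and 5.34 in wild type, with a gap of 0.20 between the groups. The difference of -0.42 ± 0.13 (SE) had an adjusted p of 0.0794, the lowest among the 18 P450 genes not called, and it passed in 1 of 17 refits, that with array weights (adjusted p = 0.0319).

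CYP79A2 (AT5G05260), which turns phenylalanine into phenylacetaldoxime on the way to benzylglucosinolate, read 3.94, 3.71 and 3.79 in the albino arrays, against 3.80, 3.85 and 3.83 in wild type. Its difference was -0.01 (95% interval -0.23 to 0.21). CYP78A9 (AT3G61880), of a family that promotes organ growth, had means of 5.05 ± 0.16 in msh1 albino tissue and 5.07 ± 0.12 in wild type (SD, n = 3 arrays each). CYP51G2 (AT2G17330), a relative of the sterol demethylase CYP51G1, had a difference of -0.03 with overlap in both directions (95% interval -0.41 to 0.34).

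Taken over the 22 genes, the sizes of the differences lay near those of the whole array. The median difference was -0.02 for the P450 genes and -0.04 for all probe sets, and the median absolute difference was 0.13 and 0.15. An absolute difference under 0.2 was found in 13 of 22 P450 genes (59.1%, against 60.9% of all probe sets), and one of at least 1, a 2-fold change, in 1 gene (4.55%, against 3.28%). In 8 genes (36.4%) the groups did not overlap, 3 higher and 5 lower in msh1 albino tissue, against 29.9% of all probe sets; 4 of these 8 were not called, namely CYP71B16, CYP71B22, CYP71B36 and CYP84A4. In the fit of all arrays as deposited, the 95% interval of all 18 genes not called lay within 1 on either side of 0. The lowest bound was -0.78 and the highest 0.92. These are bounds on RMA values, in which differences at low values are compressed. For the 7 genes at or below the 25th percentile of probe set means they do not exclude a 2-fold transcript change. The same holds for CYP51G2, CYP71B25 and CYP71B36, with group means of 4.11 to 4.44 just above that percentile. How far compression acts on the other genes not called was not tested. The difference of CYP71B26, whose upper bound was 0.92, rose to 0.66 without msh1 albino replicate 3. How large a change each interval still holds varies by gene. The interval held 0 in 16 of the 18, the exceptions being CYP71B22 and CYP84A4.

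**Figure D3:**
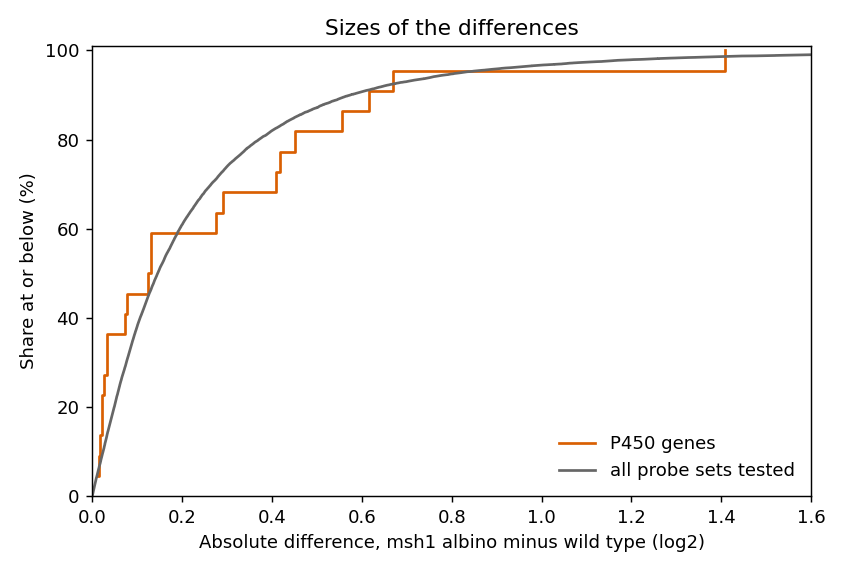
Cumulative share (%) of absolute differences between msh1 albino and wild type (log2) for the 22 P450 genes (step line) and for all 22746 probe sets tested (smooth line). The lines cross several times, with 59.1% of P450 genes and 60.9% of probe sets under 0.2, and CYP71B23 at 1.41 sets the right end of the step line.

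Low values limit a part of the family. In 7 genes, CYP71B16, CYP71B21, CYP71B27, CYP71B31, CYP71B37, CYP71B38 and CYP79A2, the mean over all arrays lay at or below 4.01, the 25th percentile of probe set means. Single values of these 7 ran from 3.16 to 4.08 and their differences from -0.13 to 0.12. Background was not measured here, so whether these transcripts were present was not settled. CYP71B copies resemble each other in sequence, and while 0 of the 22 probe sets carry a name that marks shared sequence, how far each reads its relatives was not tested.

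**Figure D4:**
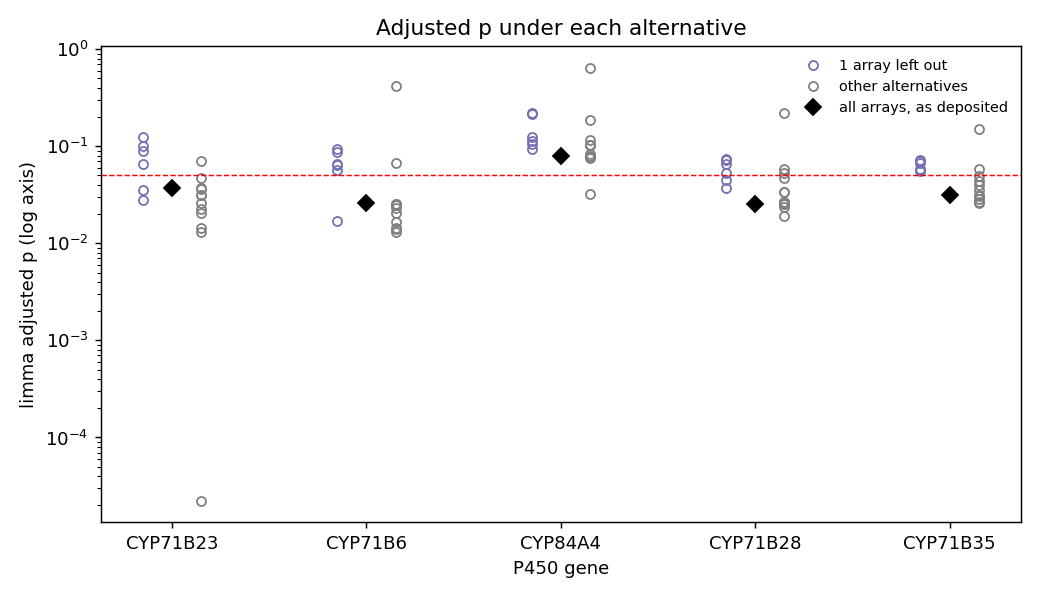
Limma adjusted p (log axis) of the 4 called genes and CYP84A4 with all arrays as deposited (diamonds), with 1 array left out (left circles) and under the other alternatives (right circles); the dashed line marks 0.05. The diamonds of the called genes lie between 0.0257 and 0.0373, close under the line, and many circles lie above it.

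In the pathways that P450 enzymes serve, 12 of 188 listed genes that are no P450 genes were measured, of which 2 rose and 1 fell, against 3.75% of all probe sets called higher and 7.44% lower; with 12 genes this is too few to set them apart. PDF1.2, a defensin gene used as a readout of jasmonate and ethylene, read 6.46, 6.69 and 6.73 in msh1 albino tissue, against 5.35, 5.37 and 6.15 in wild type (difference 1.00 ± 0.21, adjusted p = 0.0243). CCR2, a cinnamoyl-CoA reductase, read 4.77, 4.57 and 4.57 against 4.18, 4.13 and 3.88 in wild type (0.58 ± 0.12, adjusted p = 0.0199), and was the 1 called gene of 4 measured in the phenylpropanoid list beside HCT, DFR and BAN. WSD1, a wax ester synthase, fell by 0.83 ± 0.16 (adjusted p = 0.0169), with 4.94, 4.62 and 4.92 in albino tissue against 5.55, 5.97 and 5.45 in wild type. UGT74B1, the 1 measured gene of 30 listed for camalexin and indole glucosinolates beside the P450 genes, had a difference of 0.10 (adjusted p = 0.644). The wild-type mean of CCR2, 4.06, lay near 4.01, the 25th percentile of probe set means. For all listed genes that are no P450 genes, only the fit of all arrays as deposited is given. How their calls fare under the alternatives is not reported here.

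The gibberellin list had 4 measured genes and no call. Its receptor genes GID1A (difference -0.54, adjusted p = 0.0532) and GID1B (0.63, adjusted p = 0.0556) differed in sign and missed the threshold narrowly; the third receptor gene GID1C had -0.23 and SLY1, an F-box gene of the same pathway, -0.36. BRL1, a brassinosteroid receptor gene and the 1 measured in its list, had a difference of -0.39 (adjusted p = 0.336). The electron donors of P450 enzymes and the abscisic acid list were not analysed here.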

How the data were processed

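The deposited values are log2 values, 1 per probe set and array, which the authors made with RMA in the affy package, per the submitters' processing notes; neither versions nor a genome build are stated there. RMA corrects background, normalizes between arrays and compresses differences at low values. The values were used as deposited. Groups follow the labels, which give no batch. Precision is limited by there being 3 arrays a group (75th percentiles of 7.75 to 7.94; median SE of a P450 difference 0.12).

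Gene symbols came from the platform's annotation and were matched by gene number to the TAIR10.1 gene table, used for names and gene order only; 22 of 22 P450 genes matched. Not used were 2 probe sets given several genes, and CYP718 and CYP71B30P, whose symbols have another form (differences -0.10 and -0.05, neither passing). CYP71 and CYP59 are cyclophilins.

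The 22746 probe sets that are not among the 64 array controls were fitted with lmFit and eBayes (limma 3.58.1, R 4.3.3), two-sided. Differences are msh1 albino minus wild type, and p-values were adjusted by Benjamini-Hochberg over the whole array. The fit was tested on simulated data with changes of at least 1 (log2), which does not bear on smaller ones. By rule, the text names every called P450 gene, those not called with a difference of at least 1, in P450 role lists without a call the 2 largest differences, and in other pathway lists up to 4 called genes; the remaining members and measured list genes are named for completeness, after their values were seen. Of 92 P450 genes in 18 role lists, 5 were measured, CYP71B6 passing. FDH was dropped because its symbol belongs to another gene in the gene table, and CCR2 was resolved by its description there. The members and lists were chosen with earlier results of these data known. Alternatives were other scalings, filters, variance priors, weights, the replicate number, probe set choices, thresholds and leaving out each array.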

Additional observations from a re-analysis of the deposited data

How the results depend on the processing

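The count of 2 P450 genes higher became 0 with a replicate block or at an adjusted p of 0.01, and 1 with the arrays aligned on spiked hybridization controls, a setting chosen after seeing the data. With 1 array left out it ran from 0 to 2, and a test on fewer arrays has less power. The count of 2 lower became 0 with the 75th percentile or the spiked controls aligned and at 0.01, 1 after cyclic loess, 1 above the 50th percentile of the mean (CYP71B35 is filtered out there) and 5 by lack of overlap alone; with 1 array left out it ran from 0 to 1. The median difference of the P450 genes was -0.0165, and 0.0651 with the 75th percentile aligned, 0.0104 after cyclic loess and -0.0759 above the 50th percentile, and ran from -0.0312 to 0.0383 with 1 array left out (0.0383 without wild-type replicate 2). Of all probe sets 2547 were called, 3224 with array weights (where 3 P450 genes were lower, CYP84A4 added), 1485 with the replicate block, 1153 with spiked controls aligned and 851 (without wild-type replicate 2) to 2109 with 1 array left out. The values gave no sign that the replicate numbers pair the arrays. Deviations from the group means correlated at 0.01, -0.34 and -0.02 for numbers 1 to 3, and 0 of 6 arrays correlated best with their own number. With 3 arrays per group this cannot show that the arrays are unpaired. The block ended the calls of CYP71B23 (adjusted p = 0.0708) and CYP71B6 (0.0667). Spiked controls ended those of CYP71B6 (0.417), CYP71B28 (0.220) and CYP71B35 (0.150), while CYP71B23 passed (2.24e-05); in that fit all 22 P450 genes had the same SE of 0.27, so a gene with wide spread gains and one with small spread loses. No called P450 difference changed sign under any alternative run, while 34 of 304 values of genes not called did. Several alternatives, such as the replicate block, the variance prior and the filters, cannot change a difference. The called genes were also picked by these same data and had large differences. The contrast therefore does not show how firm the calls are. Low values, with 7 genes at or below the 25th percentile, limit what the arrays can show.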
